A study of Mus musculus with 7 samples.

Results

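Lipid droplets are stores of neutral lipid wrapped in a protein coat, and the 10 genes described here encode coat proteins of the droplet and the enzymes, with their regulators, that release fatty acids from it. They were chosen by name: Plin2, Plin3, Plin4 and Plin5 of the perilipin family, the lipase inhibitors Hilpda and G0s2, the lipase gene Pnpla2 with its co-activator gene Abhd5, and the lipase genes Lipe and Mgll. Each name matched 1 of the 50686 genes listed per library, and 9 of the 10 were among the 17559 genes tested, Plin5 being too scarce.

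Perilipins cover the droplet surface and limit the access of lipases to the stored triglyceride. Lipolysis then proceeds in steps. Adipose triglyceride lipase (ATGL, encoded by Pnpla2) removes the first fatty acid with the help of its co-activator CGI-58 (Abhd5), hormone-sensitive lipase (Lipe) acts mainly on the diglyceride, and monoacylglycerol lipase (Mgll) on the monoglyceride. Hilpda and G0s2 encode small proteins that bind ATGL and inhibit it, and Hilpda is known as a gene induced by hypoxia. In brain macrophages, lipid droplets are known to accumulate with age and after injury.

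RNA was measured in microglia of 4 young (3 to 4 months) and 3 old (21 to 22 months) C57BL/6 male mice, all of them 4 days after occlusion of the middle cerebral artery for 45 min. The labels give no drug treatment, and the study's methods name isoflurane anesthesia and buprenorphine analgesia at the occlusion. Forebrain cells were depleted of myelin and sorted by FACS with antibodies to CD11b and CD45, and the cells taken were Bodipy+, that is, stained by a dye of neutral lipids. Every library came from 1 mouse, the young mice being 14C, 18C, 23C and 29C and the old mice 2posI, 3posI and 4posI. Both ages were therefore ischemic and selected for droplets, and cells without droplets or from sham-operated mice were not analysed here.

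Expected counts summed to 36574083 to 53002386 per library. The microglial markers Tmem119 (850 to 2270 CPM) and P2ry12 (341 to 1770 CPM) were present in all 7 libraries, with the lowest values in old mouse 3posI. CPM here are relative to the summed counts of the tested genes in a library, after TMM scaling. The same library stood apart in its markers of infiltrating monocytes and macrophages, whose 10 genes summed to 3364 CPM in 3posI and to 210 to 555 CPM in the other 6. The monocyte receptor gene Ccr2 was at 231 CPM in 3posI and at 2.06 to 19.3 CPM elsewhere. The summed level of 8 markers of border-associated macrophages was also highest in 3posI, at 1192 CPM against 131 to 479 CPM in the other 6. F13a1 (500 CPM) and Pf4 (315 CPM) made up most of that sum. Mrc1, Cd163 and Cd209f were higher in 2posI than in 3posI, and Lyve1, Cbr2 and Folr2 were highest in 3posI. For genes whose direction turned without 3posI, that value is given as well.

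The levels of the 10 genes were first compared per transcript length, in the authors' TPM. Plin2 was the most abundant of the 10 in every library, with a median of 1012 TPM and a range of 466 to 2238 TPM, which placed it between rank 45 and rank 291 of all genes. It made up 91.9% to 97.6% of the TPM of the 4 perilipins and 67.3% to 89.1% of the TPM of all 10 genes. Its lowest library lay above the highest library of any other member. A middle tier followed in which ranges overlapped, with Hilpda at a median of 66.3 TPM (34.3 to 239), Pnpla2 at 45.5 TPM (34.7 to 64.5) and Plin3 at 37.9 TPM (34.0 to 66.1). Hilpda ranked next to Plin2 in 6 libraries, and in 2posI it came after Pnpla2. Mgll (22.5 TPM, 6.89 to 30.0), Abhd5 (18.4 TPM, 14.7 to 24.6) and Lipe (17.2 TPM, 11.2 to 24.3) formed a lower tier whose order changed from library to library. G0s2 had a median of 3.21 TPM (2.51 to 14.0), and only in 3posI was it above Lipe and Mgll. Plin5 (0.13 TPM) and Plin4 (0.08 TPM) were near 0.

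**Figure D1:**
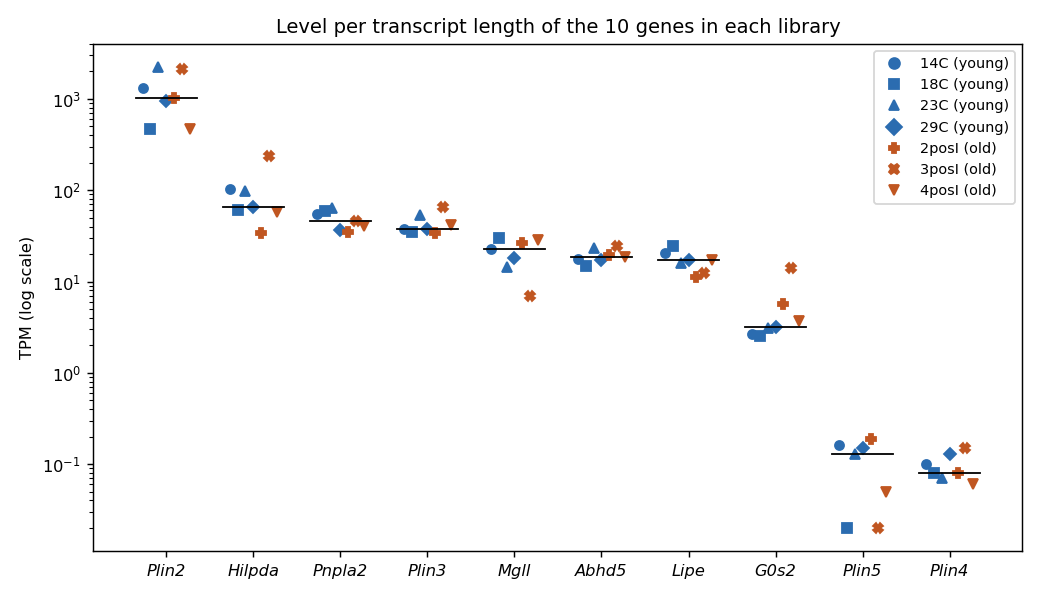
Levels of the 10 genes in TPM on a log axis, with 1 symbol per library (blue young, orange old) and a line at the median of the 7 libraries. Plin2 lies between 466 and 2238 TPM, above every other gene, and Plin4 and Plin5 lie below 0.2 TPM.

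Among the coat genes, Plin2 (chr4:86648386-86670060, minus strand, GRCm38), the perilipin that most cells place on their droplets, did not separate the ages. It had 1372, 459, 2317 and 981 CPM in young mice 14C, 18C, 23C and 29C, and 1281, 2598 and 493 CPM in old mice 2posI, 3posI and 4posI. Each age held both low and high mice, with a range of 5.05-fold among the young and 5.27-fold among the old. The means were 1282 ± 785 CPM (SD, n = 4) in young and 1458 ± 1064 CPM (SD, n = 3) in old mice. On the log2 scale the age difference was 0.18 (SE 0.61), with a 95% interval from a 0.433-fold to a 2.98-fold level in old mice (edgeR's quasi-likelihood test, adjusted p = 0.895). Without 3posI the difference was -0.53 (edgeR, adjusted p = 0.686) and without young mouse 18C -0.093 (edgeR, adjusted p = 0.956), so the sign turned with either mouse left out. In bulk RNA of sorted cells, a different number of Plin2-rich cells and a different level per cell cannot be told apart.

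The spread of Plin2 between mice of the same age was large. Its within-age SD was 1.07 on the log2 scale, against a median of 0.21 over the 8146 tested genes with a mean of at least 10 CPM, and 98.6% of those genes varied less. Hilpda (0.96, percentile 98.1), Mgll (0.86, percentile 97.5) and G0s2 (0.69, percentile 95.7 of the same genes, though its own mean was under 10 CPM) were also near the top of this distribution. This SD pools both ages, and for Hilpda and G0s2 the spread lay mostly among the old mice. The range of Hilpda was 1.75-fold among the young and 6.67-fold among the old, and that of G0s2 1.41-fold and 4.29-fold. For Mgll it was 2.43-fold and 4.27-fold. Pnpla2 (0.25, percentile 63.4), Lipe (0.23, percentile 58.2) and Abhd5 (0.20, percentile 46.9) varied like most genes. Plin3 (0.38, percentile 83.0) and the scarce Plin4 (0.54, percentile 92.1) lay between these groups. The intervals for the age difference were narrowest for Pnpla2, Lipe and Abhd5, and wide for Plin2, Hilpda, Mgll, G0s2 and Plin4.

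Plin3 (chr17:56277476-56292873, minus strand), a perilipin also found free in the cytosol, had 57.2, 51.8, 80.4 and 60.5 CPM in young and 58.5, 109.8 and 61.2 CPM in old mice. Old mice 2posI and 4posI lay within the young range and 3posI above it. The fitted difference between ages was 0.29 on the log2 scale (SE 0.25, edgeR, adjusted p = 0.551), and -0.061 without 3posI. Plin4 (chr17:56100591-56109803, minus strand), a perilipin of adipose and muscle tissue, had 19, 14, 15 and 26 counts in young and 13, 26 and 11 counts in old mice, or 0.238 to 0.664 CPM. Its log2 fold change of 0.12 (SE 0.54, edgeR, adjusted p = 0.925) could not be told from 0 at this depth, and it was -0.34 without 3posI. Plin5 (chr17:56111601-56117596, minus strand), the perilipin of oxidative tissues, had 10, 1, 9 and 10 counts in young and 10, 1 and 3 counts in old mice and was not tested. An exact Poisson 95% interval for 10 counts runs from 4.80 to 18.4 and for 1 count from 0.0253 to 5.57, and such intervals cover counting error only. Plin4 and Plin5 are neighbours, 1798 bases apart, and Plin1, the adipocyte perilipin, had 0 to 2 counts.

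The inhibitor gene G0s2 (chr1:193272161-193273217, minus strand) was the member with the largest fold change between the ages, at a low level. It had 1.56, 1.43, 1.80 and 2.02 CPM in young mice, from 72, 64, 92 and 94 counts, and 3.81, 9.07 and 2.12 CPM in old mice, from 128, 355 and 98 counts. The old libraries were all above the young ones, although 4posI exceeded 29C by little. The means were 1.70 ± 0.262 CPM (SD, n = 4) and 5.001 ± 3.63 CPM (SD, n = 3). The log2 fold change of 1.55 (SE 0.45), or a 2.93-fold level in old mice (95% interval 1.44 to 5.97), did not pass the threshold over all genes (unadjusted p = 0.00795, adjusted p = 0.132, edgeR). Two-sided exact permutation gave p = 0.0286, the smallest that 3 against 4 libraries allow. That value largely restates the lack of overlap, which 17.7% of all genes tested showed in either direction. DESeq2 put the gene past the threshold (adjusted p = 0.0193). Without 3posI this difference was 0.80 (SE 0.34, edgeR, adjusted p = 0.28), and the ages still did not overlap. The monocyte marker Ly6c2 separated the ages in the same direction, with 0.946 to 2.86 CPM in young mice and 15.3, 162 and 9.59 CPM in old mice, and of the 10 monocyte markers 4 did so in all, each higher in old mice. Their summed level overlapped (210 to 555 CPM in the young, 279 to 3364 CPM in the old), as did that of the 11 neutrophil markers (190 to 463 and 290 to 362 CPM). Csf3r made up most of the neutrophil sum in 6 libraries, and the other 10 neutrophil markers summed to 18.7 to 156 CPM in the young and to 53.7, 190.9 and 79.4 CPM in old mice 2posI, 3posI and 4posI. Of the 11 neutrophil markers only Cxcr2 separated the ages, with 0.864 to 7.95 CPM in old and 0.157 to 0.731 CPM in young mice. So did 1 of the 8 markers of border-associated macrophages, Cd209f (8.83 to 27.1 CPM in old and 0.843 to 6.15 CPM in young mice). Beside these marker counts, 8.67% of all genes tested were higher in every old library than in any young one. The part of monocytes, neutrophils and border-associated macrophages in the level of G0s2 was not tested. G0s2 lies within Lamb3, a gene of the opposite strand that had 0 to 9 counts, and the libraries do not keep strand.

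Hilpda (chr6:29272488-29275446, plus strand), the other inhibitor gene, had 67.7, 38.7, 64.3 and 46.8 CPM in young mice and 26.1, 174.4 and 37.9 CPM in old mice. Old mouse 3posI was above all young mice, and 2posI and 4posI were below all of them. The means were 54.4 ± 13.9 CPM (SD, n = 4) and 79.5 ± 82.4 CPM (SD, n = 3). Fitted over all mice, old exceeded young by 0.55 on the log2 scale (SE 0.58, edgeR, adjusted p = 0.645), and exact permutation gave p = 0.943. Without 3posI it became -0.76 (SE 0.26, unadjusted p = 0.0181, adjusted p = 0.189, edgeR), with old below young throughout, so the direction for Hilpda turned without this 1 mouse. The values of 3posI for both inhibitors stood beside its high sums of monocyte and border-associated macrophage markers. The part of such cells in these values was not tested.

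**Figure D2:**
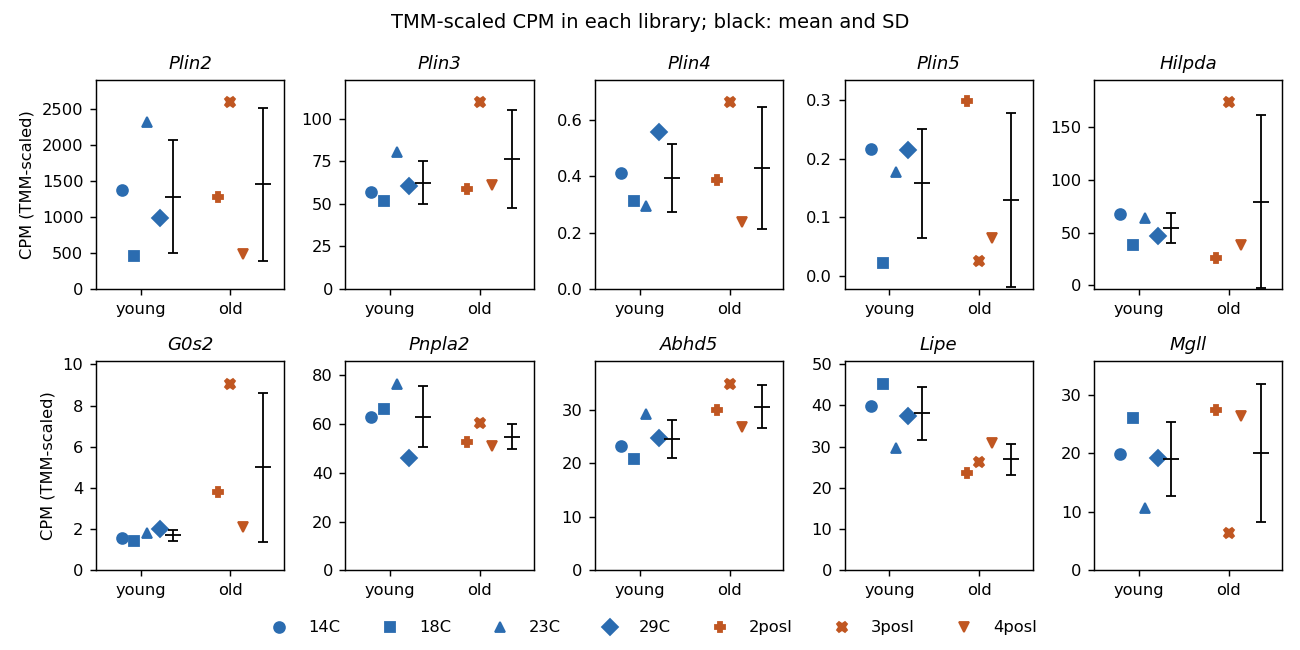
TMM-scaled CPM of each of the 10 genes in each library (blue young, orange old), with the mean and SD of each age in black and a separate axis per gene that includes 0. The 3 old libraries lie above the 4 young ones for G0s2, and old mouse 3posI stands alone at 174.4 CPM for Hilpda.

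Because Hilpda is known as a target of the hypoxia-inducible factors, the promoters of the 10 genes were searched for the core of the motif those factors bind, ACGTG or GCGTG, on either strand in the 250 bases before each start site (RefSeq, GRCm38.p6). At least 1 core was present before 9 of the 14 start sites of the members, in 7 of the 10 genes, and in 38.6% of all 32851 promoters. Hilpda had 3 before its second start site and 0 before its first, and 6.58% of all promoters held 3 or more. Mgll had 4, of which a pair are the same CACGTG read on both strands, and 7 before its start sites, where 0.183% of all promoters held 7 or more. Lipe had 3 before its first start site, again with a CACGTG counted on both strands, and 0 before its second. Plin2, G0s2 and Abhd5 had 1 each, Plin5 1 before each of its start sites, and Plin3, Plin4 and Pnpla2 had 0. The 5 windows of the abundant coat gene and of the inhibitors are given 5′ to 3′ on the gene's strand, with the core in capitals, read as CACGC where it lies on the other strand.
Hilpda, chr6:29272503-29272532, plus strand, core at -111: caaccgcgagccGCGTGctttccgtgactc
Hilpda, chr6:29272571-29272600, plus strand, core at -43: gatggccagcggACGTGccccagggcgagc
Hilpda, chr6:29272606-29272635, plus strand, core at -8: caggttcggtacGCGTGcgcagtctccgag
G0s2, chr1:193273313-193273342, minus strand, core at -142: cacacagcagggGCGTGcactactcgtggt
Plin2, chr4:86670128-86670157, minus strand, core at -86: ggttggggttccCACGCcctcatccccaat
Positions count from the start site to the first base of the core. The Hilpda windows precede its second start site at 29272626 and follow its first at 29272488. The match describes letters in the reference and no binding was measured. Hif1a, a subunit of these factors, ranged from 485 to 604 CPM in the young and from 423 to 825 CPM in the old mice (log2 fold change 0.14, edgeR, adjusted p = 0.775). The highest value was that of 3posI, without which the log2 fold change was -0.20.

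The lipase gene Pnpla2 (chr7:141455198-141460743, plus strand) was among the steadiest members. It had 63.0, 66.2, 76.6 and 46.2 CPM in young and 52.6, 60.6 and 51.0 CPM in old mice, all 3 old values inside the young range in CPM. In TPM old 2posI (34.7) was below all young mice, of which 29C was the lowest (36.7). The means were 63.0 ± 12.6 CPM (SD, n = 4) and 54.7 ± 5.12 CPM (SD, n = 3). Old mice differed by -0.20 on the log2 scale (SE 0.17, edgeR, adjusted p = 0.556), with a 95% interval that runs from a 0.662-fold to a 1.14-fold level in old mice. With limma on log2(TPM + 0.1) the log2 fold change was -0.40 (adjusted p = 0.324), while the median of all genes shifted by -0.114.

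Its co-activator gene Abhd5 (chr9:122351608-122381524, plus strand) had 23.2, 20.9, 29.2 and 24.8 CPM in young and 30.0, 34.9 and 26.8 CPM in old mice. In CPM old 2posI and 3posI were above all young mice, and 4posI was below 23C. In TPM 3posI alone was above all young mice, since 2posI had 19.4 TPM and 23C 23.5 TPM. The fitted log2 difference was 0.32 (SE 0.15, unadjusted p = 0.0682, adjusted p = 0.304, edgeR) and remained positive with any 1 library left out (0.21 to 0.42). Per length, the ratio of Abhd5 to Pnpla2 ran from 0.248 to 0.466 in the young and from 0.458 to 0.558 in the old mice.

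The gene of hormone-sensitive lipase, Lipe (chr7:25379527-25398710, minus strand), was the member with the lowest level in old relative to young mice. It had 39.9, 45.3, 29.8 and 37.3 CPM in young and 23.6, 26.2 and 30.9 CPM in old mice. The ages overlapped through 1 pair, young 23C and old 4posI. The means were 38.1 ± 6.46 CPM (SD, n = 4) and 26.9 ± 3.70 CPM (SD, n = 3), and the fitted difference was -0.50 on the log2 scale (SE 0.17, unadjusted p = 0.0163, adjusted p = 0.17, edgeR). Exact permutation gave p = 0.0857. It was negative with any 1 library left out (-0.62 to -0.40), 3posI included (-0.48). Summed over 8 genes, endothelial markers were also lower in every old library (50.7 to 65.6 CPM) than in any young one (67.1 to 131 CPM), and their part in the level of Lipe was not tested. The expected counts of Lipe were whole in 0 of 7 libraries (tolerance 0.001), so RSEM divided some of its reads with other genes, and the antisense gene 4732471J01Rik, which spans Lipe, had 28.7 to 63.1 counts against 792 to 2024 for Lipe. Counts were whole in 2 of 7 libraries for Plin2, 3 for Abhd5 and 6 for Mgll, and in all 7 for the other members.

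Mgll (chr6:88724412-88828360, plus strand), whose enzyme also degrades an endocannabinoid, had 19.8, 26.1, 10.7 and 19.2 CPM in young and 27.4, 6.41 and 26.3 CPM in old mice. Old 2posI and 4posI were above all young mice, 4posI by little, and 3posI was below all of them, the reverse of their places for Hilpda. In TPM 2posI (26.7) and 4posI (28.8) were below young 18C (30.0). Its log2 fold change was 0.08 (SE 0.47, edgeR, adjusted p = 0.942), and 0.51 without 3posI (adjusted p = 0.402, edgeR), where old lay above young throughout in CPM.

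Across the 9 genes tested, 7 had a higher and 2 a lower fitted level in old mice, with a median log2 fold change of 0.18. Over all genes 48.8% were higher and the median was -0.01. With edgeR 0 of the 9 passed an adjusted p of 0.05, where 0.803% of all genes tested did, and limma-voom called 0 as well. DESeq2 called 1, G0s2, against 7.97% of all genes. An unadjusted p under 0.05 was found for 2 of 9 (G0s2 and Lipe), against 18.9% of all genes. The ages did not overlap for 1 of 9, G0s2, which was higher in old mice, against 17.7% of all genes in either direction and 8.67% with old mice higher. With 9 genes, the shares called, under an unadjusted p of 0.05 or without overlap were close to those of all genes. The share with a higher fitted level in old mice was above that of all genes. Without 3posI the balance turned to 3 higher and 6 lower, with a median of -0.28.

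**Figure D3:**
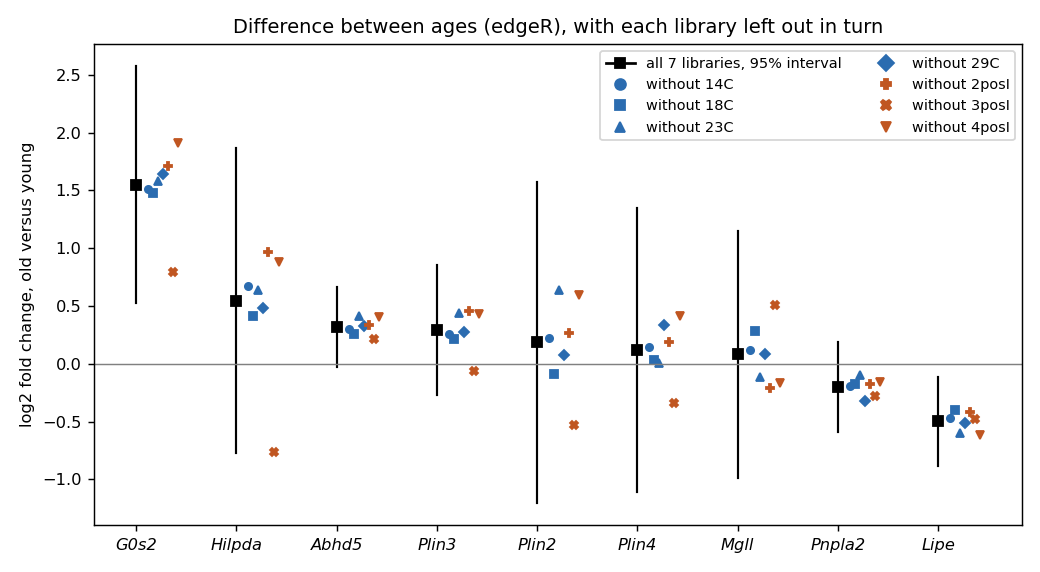
Log2 fold change between ages from edgeR for the 9 tested genes, with the 95% interval over all 7 libraries (black) and the value with each library left out in turn (blue young, orange old). G0s2 stays above 0 (0.80 to 1.91) and Lipe below 0 (-0.62 to -0.40), and without 3posI Plin2, Plin3, Plin4 and Hilpda lie below 0.

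The members did not vary between mice as a block. In CPM, old mouse 3posI had the highest value of 6 members (Plin2, Plin3, Plin4, Hilpda, G0s2 and Abhd5) and the lowest of Mgll. Young mouse 18C had the lowest CPM of 5 (Plin2, Plin3, Plin5, G0s2 and Abhd5) and the highest of Lipe. In TPM, however, Plin2 was highest in 23C (2238, against 2126 in 3posI) and Plin3 lowest in 2posI (34.0, against 35.3 in 18C). Mgll was lowest in the pair of mice with the most Plin2, 23C and 3posI, and the ratio of Plin2 to Mgll in TPM ran from 15.6 in 18C to 309 in 3posI. The summed microglial markers were 35560 CPM in 18C, and 23320 CPM in 23C and 12170 CPM in 3posI, the lowest values. In 4posI, where Plin2 was nearly as low as in 18C, they were 25870 CPM. Whether marker levels account for the spread of Plin2 was not tested. Of the 8 markers of adipocytes, the cells that store most lipid in the body, Lep, Cfd and Cidec were at 0 in all 7 libraries, Adipoq had at most 0.0671 CPM, and Fabp4 was the highest, with 16.3 CPM in 3posI and 0.201 to 2.33 CPM in the others.

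Among the 8145 other tested genes with a mean of at least 10 CPM, those whose pattern over the 7 libraries was most like that of Plin2 were Shtn1, Spp1, Cdo1, Wfdc17 and Anxa2. Likeness was measured as the root mean square difference of log2 CPM after centring on each gene's mean, which was 0.29 for Shtn1 and 0.36 for Anxa2, and 0.93 for the median gene. A gene at a constant level would have 0.91. Spp1, which encodes the secreted protein osteopontin, had 5166 CPM in 18C and 7314 CPM in 4posI, and 22320 CPM in 3posI and 25550 CPM in 23C. It had 11670 CPM in 29C, 12500 CPM in 14C and 22150 CPM in 2posI, although Plin2 was lower in 2posI than in 14C. By the same measure Plin3 (0.68), Hilpda (0.71), Abhd5 (0.76) and Pnpla2 (0.85) were closer to Plin2 than a constant gene, and Lipe (1.11) and Mgll (1.56) were farther away. These are descriptions over 7 libraries that share their depth and cell makeup across genes.

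**Figure D4:**
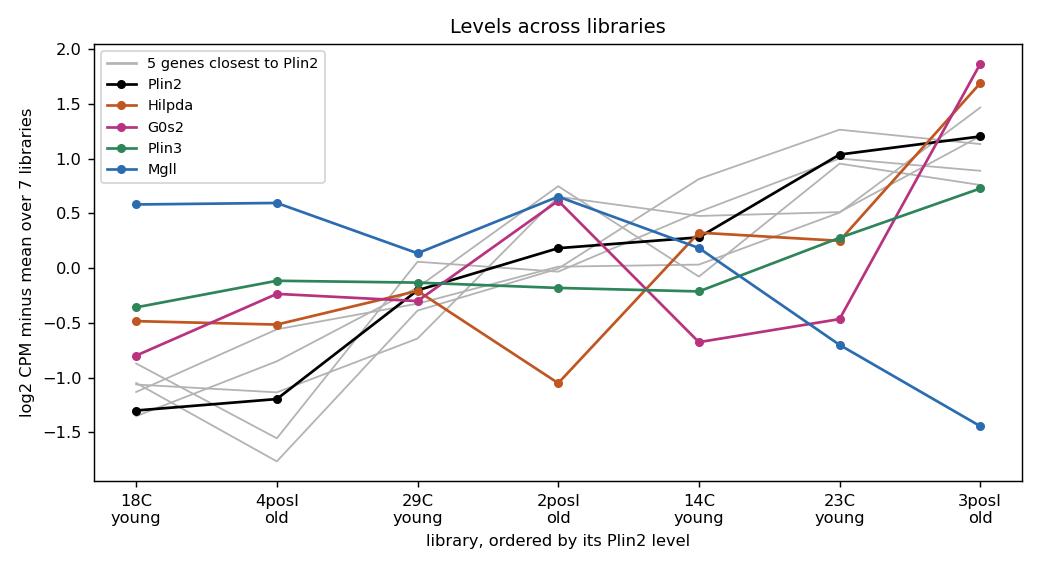
Log2 CPM minus the gene's mean over the 7 libraries, with libraries ordered by their Plin2 level from 18C to 3posI, for Plin2, Hilpda, G0s2, Plin3 and Mgll (coloured) and for the 5 genes closest to Plin2 (grey). Mgll runs against Plin2 at the right, and Hilpda is lowest in 2posI, where G0s2 is high.

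The balance of inhibitor to lipase was described per length, without a test. The ratio of G0s2 to Pnpla2 in TPM was 0.0485, 0.0423, 0.0481 and 0.0875 in young and 0.164, 0.308 and 0.0914 in old mice, so every old library was above every young one, by little for 4posI. The ratio of Hilpda to Pnpla2 was 1.01 to 1.90 in young mice and 0.989, 5.25 and 1.44 in old mice 2posI, 3posI and 4posI. Hilpda was therefore the more abundant inhibitor transcript in all 7 libraries, by 20.7- to 39.1-fold in the young and 6.04- to 17.0-fold in the old ones.

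Other genes of the droplet and of lipolysis were read from the same fit. Of 32 genes of droplet assembly and the droplet surface, 26 were tested, 13 higher and 13 lower in old mice, with a median log2 fold change of 0.03. With edgeR 0 passed the adjusted threshold and with limma-voom 0. An unadjusted edgeR p under 0.05 was found for 5 of 26, against 18.9% of all genes. DESeq2 called 4 of 26, against 7.97% of all genes. The ages did not overlap for 6 of 26, against 17.7% of all genes. The smallest p belonged to Rnf213, which encodes a ubiquitin ligase found on droplets. The young mice had 40.8 to 104.0 CPM and the old mice 145.3 to 184.3 CPM, a fitted log2 difference of 1.36 (SE 0.30, edgeR, adjusted p = 0.074). Ubxn4 lay between 68.8 and 77.1 CPM in the young and between 91.3 and 123.7 CPM in the old mice (log2 fold change 0.52, adjusted p = 0.0979, edgeR). Lpcat1, whose enzyme remodels phosphatidylcholine, lay between 67.4 and 101.5 CPM in the young and between 33.0 and 57.3 CPM in the old mice (log2 fold change -0.82, adjusted p = 0.101, edgeR). Without 3posI 14 genes of this list were higher and 12 lower.

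Of 32 other lipases and regulators of lipolysis, 27 were tested, 8 higher and 19 lower in old mice, with a median log2 fold change of -0.23. With edgeR 0 passed the adjusted threshold and with limma-voom 0. An unadjusted edgeR p under 0.05 was found for 6 of 27, against 18.9% of all genes. DESeq2 called 3 of 27, against 7.97% of all genes. In 3 the ages did not overlap, all lower in old mice, against 9.07% of all genes in that direction. These 3 had the smallest p. Pnpla6, a phospholipase relative of Pnpla2, lay between 17.2 and 19.97 CPM in the young and between 9.54 and 15.1 CPM in the old mice (log2 fold change -0.68, adjusted p = 0.112, edgeR). Hcar2, the receptor through which hydroxybutyrate and niacin restrain lipolysis in adipocytes, lay between 116 and 202 CPM in the young and between 76.6 and 115.7 CPM in the old mice (log2 fold change -0.77, adjusted p = 0.125, edgeR). Pnpla7, a relative of Pnpla6, lay between 166 and 239 CPM in the young and between 121 and 163 CPM in the old mice (log2 fold change -0.54, adjusted p = 0.158, edgeR). Without 3posI this list had a median of -0.13, with 8 genes higher and 19 lower.

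**Figure D5:**
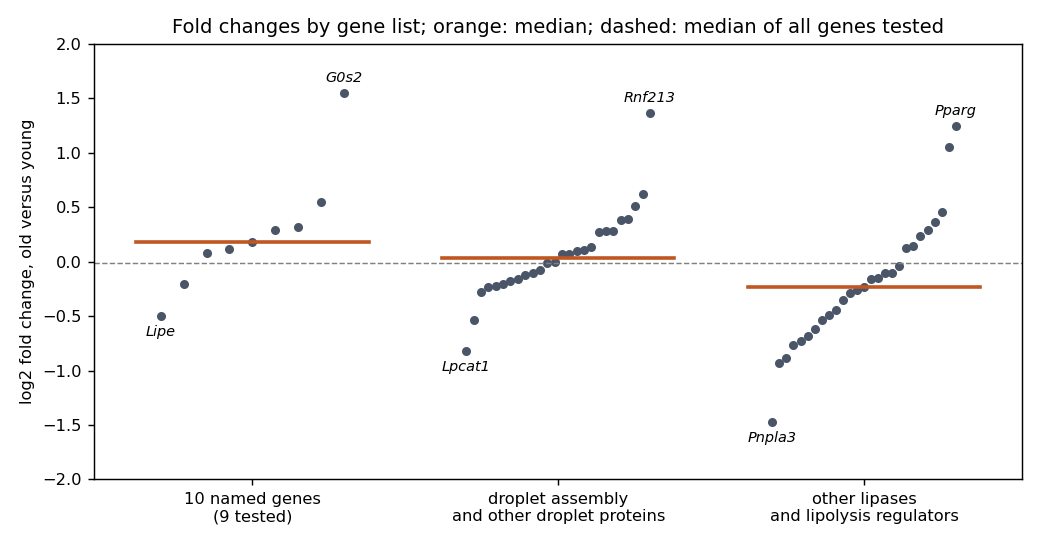
Log2 fold change between ages for each tested gene of the 3 lists, sorted within each list, with the list's median (orange) and the median of all genes tested (dashed). The median is 0.18 for the 10 named genes, 0.03 for droplet assembly and -0.23 for other lipases, and 0 genes of the 3 lists passed the adjusted threshold.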

How the data were processed

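RNA-seq libraries of Bodipy+ microglia from 7 male mice were made by Smart-seq2, which keeps no strand; no molecular identifiers are named, so PCR copies count as reads. Per the study's methods and the submitters' processing notes, reads were checked with FastQC 0.11.5, trimmed with skewer 0.2.2, mapped to GRCm38 with STAR and quantified with RSEM on GENCODE m15, the versions of both being not given in the sources used here. Expected counts of RSEM were deposited by the authors without normalization. The authors also deposited TPM and FPKM values, scaled within each library, and the effective length of each gene.

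Here, expected counts were rounded, and a gene was kept if any library had over 10 of them (18173 genes). Removing 614 genes of chromosomes X, Y and M left 17559. GENCODE vM21 gave the coordinates, and 42 tested genes without an entry there could not be filtered by chromosome. TMM factors (0.952 to 1.05) and the quasi-likelihood test came from edgeR 4.0.16 under R 4.3.3, with age as the only term and Benjamini-Hochberg adjustment. The labels give no batch. The study's methods use limma-voom, which was run here (limma 3.58.1) as an alternative, beside DESeq2 1.42.0, other scalings and filters, limma on log2 TPM with pseudocounts of 0.1 and 1, the effective length as an offset, and leaving out each library. TPM served for levels between genes, and FPKM, which must give the same ratios within a library, were computed beside them.

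The members and gene lists were chosen with earlier results of these data known. The text names the 10 members, from each of the other 2 lists the 3 genes of smallest p, and the 5 genes closest to Plin2. Hif1a, the marker genes and Plin1 were named beside them after values were seen, as were the genes of the closing section.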

Additional observations from a re-analysis of the deposited data

How the results depend on the processing

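The sign of the age difference was stable for G0s2, Abhd5, Pnpla2 and Lipe under all alternatives run, and not for the other 5 tested members. Of 162 pairs of a member and an alternative, 143 had the same direction, 19 turned and 1 passed the threshold, G0s2 by DESeq2 (log2 fold change 1.56, adjusted p = 0.0193). With limma on log2(TPM + 0.1) the log2 fold change was -0.081 for Plin2, -0.0045 for Plin4, -0.036 for Hilpda and -0.23 for Mgll, while the median of all genes shifted by -0.114. With log2(TPM + 1) it was -0.081 for Plin2, -0.031 for Hilpda and -0.21 for Mgll. With sample quality weights it was -0.12 for Plin2, -0.20 for Plin4 and -0.39 for Hilpda, and with limma-voom -0.10 for Mgll. With 1 library left out in turn the range was -0.53 to 0.64 for Plin2, -0.061 to 0.45 for Plin3, -0.34 to 0.41 for Plin4, -0.76 to 0.96 for Hilpda, -0.21 to 0.51 for Mgll and 0.80 to 1.91 for G0s2 (adjusted p 0.0688 to 0.293, edgeR). The 0 members called became 1 with DESeq2. The 0 droplet assembly genes became 4 with DESeq2, 1 with the effective-length offset and 1 without a filter on low counts, and the 0 other lipolysis genes became 3 with DESeq2. Over all genes, 141 calls (70.9% higher in old mice) became 1399 (53.2%) with DESeq2, 318 (63.8%) with quality weights, 288 (54.5%) without a filter, 213 (61.5%) with the offset, 71 (47.9%) with log2(TPM + 0.1), 64 (32 of them higher) with log2(TPM + 1) and 1 to 159 with a library left out. The share of Plin2 among perilipins (median 96.7%) was the same in FPKM and in CPM per length. That had to be so, since these units and TPM divide the same counts by the same lengths within a library, so it is no check. Apart from the left-out library, the cause of these shifts was not tested. No paired analysis was possible because the labels give each mouse its own code and no number shared between the ages. Depth limits Plin4 and Plin5, which had at most 26 counts in a library.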

Other observations

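Among the other lipases, 4 genes chosen after their values were seen were far more abundant per length than Lipe or Mgll. Abhd12, a monoglyceride and lysophospholipid hydrolase, had a median of 793.6 TPM over the 7 libraries, against 22.5 TPM for Mgll. Lipa, the acid lipase of lysosomes, had a median of 160.6 TPM, and Lpl, the secreted lipoprotein lipase, 146.6 TPM. Daglb, which forms an endocannabinoid from diglyceride, had 139.7 TPM. In CPM, Lipa was highest in 3posI (662.8) and 23C (496.2), the mice with the most Plin2, and Abhd12 was lowest in 3posI (726.8). The log2 fold changes between ages were 0.37 for Lipa, -0.26 for Abhd12, -0.49 for Lpl and -0.36 for Daglb, and edgeR gave adjusted p of 0.559, 0.451, 0.6 and 0.378. Without 3posI they were -0.028 for Lipa, -0.11 for Abhd12, -0.091 for Lpl and -0.14 for Daglb. Abhd6, a further monoglyceride hydrolase, had 38.7 to 50.1 CPM in young and 19.4 to 50.2 CPM in old mice, and like Mgll it was lowest in 3posI (log2 fold change -0.16, and 0.17 without 3posI).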
